A study of Mus musculus with 4 samples.

Results

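The genes described here are Igf1r, Pik3ca, Akt2 and Mtor, which encode the IGF1 receptor, the alpha catalytic subunit of phosphoinositide 3-kinase (PI3K), the protein kinase AKT2 and the protein kinase mTOR. They were taken by gene name from 2 deposited lists of N6-methyladenosine (m6A) peaks in mouse heart. The genes held 17 of 39717 lines in all, 9 of 16562 in the CHAPIR list and 8 of 23155 in the NC list, and they were 4 of the 6653 genes with a peak in either list. Each line is a peak on a single transcript, so a site shared by several transcripts of a gene is listed several times.

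The study used MeRIP-seq, in which an antibody against m6A enriches methylated fragments of mRNA, and these are sequenced alongside the input they came from. CHAPIR hearts came from C57BL/6 mice that received a mimic of CHAPIR, a small RNA of the piRNA class associated with cardiac hypertrophy, at 30 mg/kg from an osmotic minipump worn for 14 days. NC hearts came from C57BL/6 mice that received a scrambled mimic from the same kind of pump, for which the labels repeat no dose, and all libraries are labelled 2 weeks. A condition was represented by 1 pulldown and 1 input library, the age, sex and number of animals behind a library are not given in the labels, and whole hearts mix muscle with vessel, immune and other cells. No spread between animals could therefore be measured and nothing was tested between conditions. The deposited files give no read counts, so the depth behind each peak is unknown.

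IGF1 and insulin act through receptor tyrosine kinases whose adaptor proteins recruit PI3K to the cell membrane. PI3K makes a membrane lipid that brings AKT to its activating kinases, and AKT in turn relieves inhibition of mTOR, which promotes protein synthesis and restrains autophagy. In the heart this pathway is known for growth of muscle cells in development and exercise, and AKT2 for insulin-stimulated glucose uptake. The m6A mark lies mostly near stop codons and in 3′ untranslated regions (3′ UTRs) of mRNAs, where reader proteins bind it and affect decay and translation.

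Most markers of heart muscle were in both lists, and markers of some other cells were in 1 list only. Of 8 cardiomyocyte markers, 7 had a peak in both lists, and Actc1 had one in the CHAPIR list only. Among all 6653 genes, 53.5% had a peak in both lists. Endothelial markers were in both lists for 3 of 4 genes with a peak, fibroblast markers for 4 of 5, and smooth muscle and pericyte markers for 4 of 6. The others of these were Dcn and Acta2 in the CHAPIR list only and Tek and Cspg4 in the NC list only. All 4 atrial markers and 4 of the 6 macrophage and immune markers with a peak were in the CHAPIR list only, as were 15.3% of all 6653 genes. Of 5 adipocyte markers with a peak, 4 were in the NC list only, as were 31.3% of all genes. Peaks on the X-inactivation transcripts Xist and Tsix were in the NC list only, and the Y-linked genes Ddx3y and Eif2s3y had peaks in the CHAPIR list only. These X-linked and Y-linked genes were chosen after the data were seen. The part of these differences in the results below was not tested. In whole tissue, peak lists cannot tell apart differences in cell number, in RNA per cell, in m6A and in depth.

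The 4 genes fell into 3 patterns. Pik3ca had a peak in both lists, as did 53.5% of the 6653 genes. Akt2 and Mtor had a peak in the CHAPIR list only, as did 15.3% of all genes, and Igf1r had one in the NC list only, as did 31.3%. When lines that overlap on the same strand were merged, the CHAPIR list held 3 distinct positions on the 4 genes (1 each on Pik3ca, Akt2 and Mtor) and the NC list also held 3 (2 on Pik3ca and 1 on Igf1r). Only the main Pik3ca position was shared. It accounted for 4 of the 9 CHAPIR lines, where an NC peak overlapped 72.3% of all CHAPIR lines, and for 4 of the 8 NC lines, where a CHAPIR peak overlapped 50.5% of all NC lines. Absence from a list means only that no peak of the gene passed that list's threshold, and does not show that its mRNA lacked m6A or was not expressed.

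**Figure D1:**
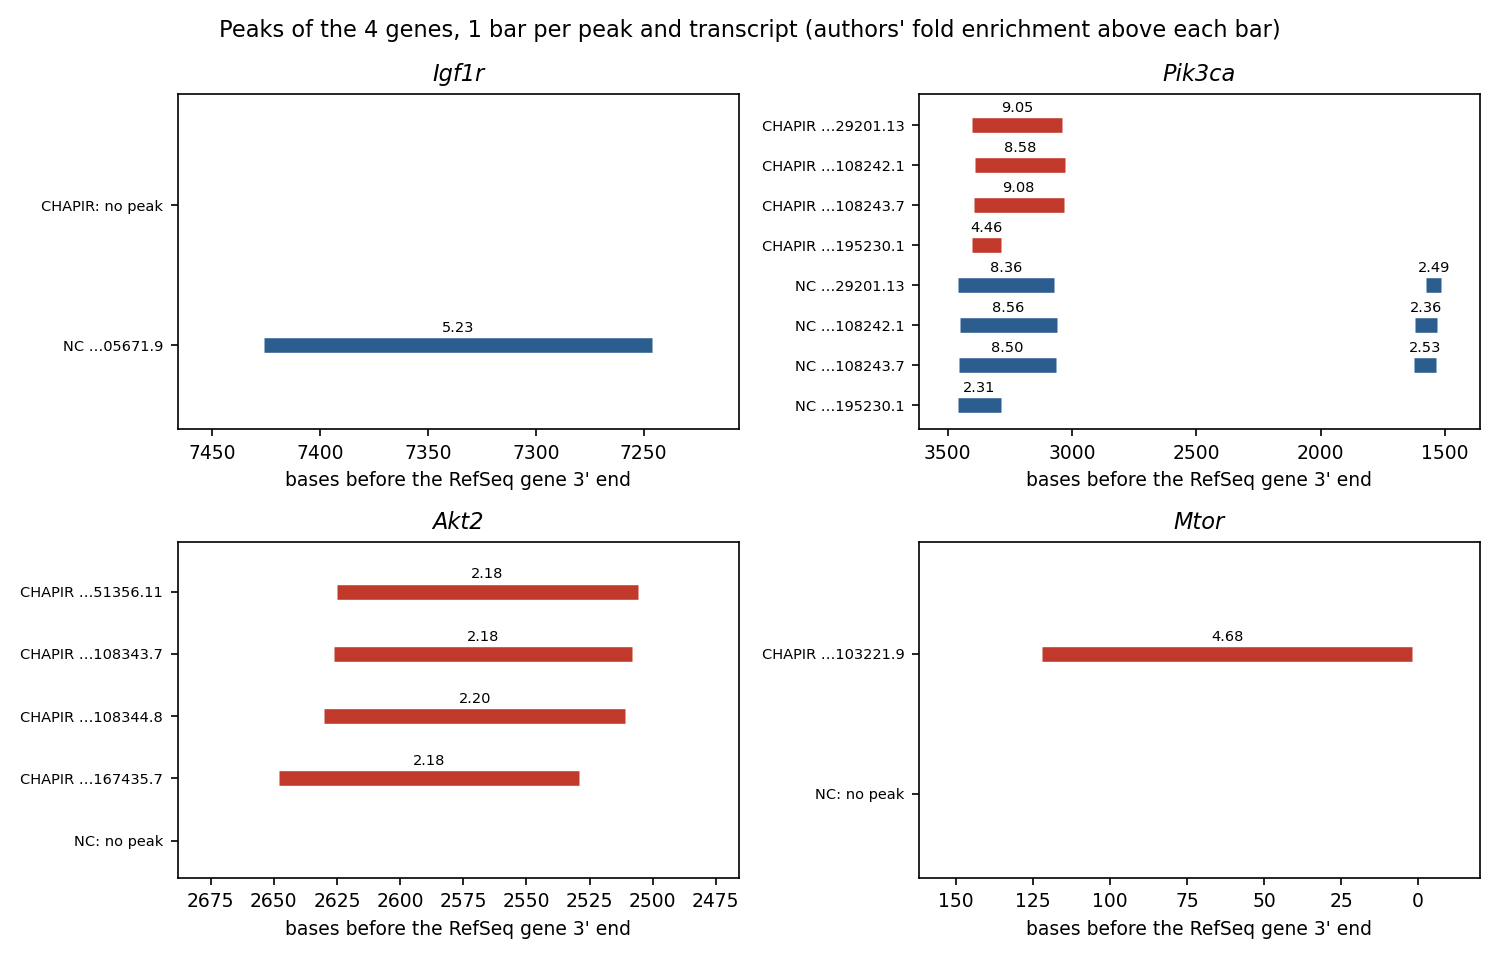
Every peak of the 4 genes, drawn by distance in bases from the annotated 3′ end of the gene, with 1 row per list and transcript (CHAPIR rows in red above NC rows in blue) and the authors' fold enrichment above each bar. The main Pik3ca peak lies at the same place in both lists, the second Pik3ca site and the Igf1r peak appear in the NC list only, and the Akt2 and Mtor peaks appear in the CHAPIR list only.

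Igf1r, the receptor at the head of the pathway, had no peak in the CHAPIR list and a single peak in the NC list. The NC peak lay on chromosome 7, at 68226242 to 68226422 of the plus strand (GRCm38), and covered 181 bases annotated to the coding sequence and 3′ UTR of transcript ENSMUST00000005671.9. Its fold enrichment, the authors' ratio of pulldown over input signal within a peak, was 5.23, and its FDR, the authors' false discovery rate for that enrichment, was 1.10e-06. The fold stood at percentile 74.9 of the NC list, and 50.1% of NC peaks had a smaller FDR. It was therefore a peak of above-median fold and middling FDR. It ended 7246 bases before the annotated end of the gene, so the long remaining stretch of Igf1r held no listed peak in either condition.

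Pik3ca, the catalytic subunit that makes the lipid signal, carried the strongest peak of the 4 genes in both lists. In the CHAPIR list it was called on 3 protein-coding transcripts with folds of 9.05, 9.08 and 8.58 (FDR 3.16e-36, 7.94e-35 and 5.01e-35). In the NC list the same transcripts had folds of 8.36, 8.50 and 8.56 (FDR 5.01e-49, 1.26e-49 and 2.51e-50). These lines rest on the same reads and are not replicates. All were annotated to the coding sequence and 3′ UTR, with outer edges on chromosome 3 at 32462712 to 32463082 in the CHAPIR list and 32462652 to 32463052 in the NC list. Folds are not scaled between lists, so each was ranked within its own. The 3 CHAPIR folds stood at percentiles 86.6 to 87.8 and the 3 NC folds at 90.7 to 91.0. Peaks with a smaller FDR made up 10.2% to 10.8% of the CHAPIR list and 6.62% to 7.01% of the NC list. The peak thus ranked near the top of each list.

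Both edges of the Pik3ca peak moved between the lists by small steps. On the 3 protein-coding transcripts the CHAPIR peak started 59 or 60 bases further downstream than the NC peak and ended 30 bases further downstream. It measured 360 or 361 bases, against 390 or 391 in the NC list, with 330 or 331 bases in common. The shared part was 78.6% to 78.8% of the joint extent. Across 5781 pairs of single-block peaks on the same transcript in both lists, the median share was 57.3%, and Pik3ca stood at percentiles 77.1 to 77.4. Starts differed by a median of 60 bases in those pairs and were equal in 21.3% of them. Peak widths fall on a grid of 30 bases, within 1 base, for 74.0% of all peaks, where an even spread of remainders would give 10%, and for 15 of the 17 peaks of the 4 genes. The Pik3ca shifts were 1 and 2 steps of that grid.

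The same site was also listed on ENSMUST00000195230.1, a Pik3ca transcript with a retained intron, where the peak ended at 32462828 in both lists. There the fold was 4.46 in the CHAPIR list (118 bases, FDR 0.00107) and 2.31 in the NC list (177 bases, FDR 0.00347). Both values were lower than those of the protein-coding transcripts in the same list. The highest fold over the lowest at this position was 2.04 in the CHAPIR list and 3.71 in the NC list. Among positions listed on several transcripts the median of that ratio was 1.09 (quartiles 1.02 and 1.31, 3867 positions) in the CHAPIR list and 1.08 (1.03 and 1.30, 5307 positions) in the NC list. The transcript model used for a line therefore changed the Pik3ca value more than at most positions.

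A second Pik3ca site fell wholly within the 3′ UTR and was found in the NC list only. It was listed on the 3 protein-coding transcripts with folds of 2.49, 2.53 and 2.36, widths of 60, 91 and 90 bases and FDRs of 0.00832, 0.00661 and 0.0123. It lay at 32464487 to 32464596, 1516 to 1625 bases before the end of the gene. Its lines ranked low, at fold percentiles 20.6 to 25.6, and 89.6% to 94.1% of NC peaks had a smaller FDR. The site was lost when the NC list was cut to the length of the CHAPIR list and at an FDR at or under 1e-05, so its presence in the NC list rests on weak peaks (the largest FDR in that list was 0.0501).

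Akt2, the kinase that couples insulin to glucose uptake, had a peak on 4 protein-coding transcripts in the CHAPIR list and none in the NC list. All 4 lines were wholly in the 3′ UTR, with starts at 27638178, 27638196, 27638200 and 27638201 of chromosome 7 and widths of 119 or 120 bases. They describe 1 site of 143 bases, 2506 to 2648 bases before the annotated gene end. Their folds were 2.18, 2.20, 2.18 and 2.18 in that order, with FDRs from 1.74e-06 to 2.34e-06. These folds were low for the list, at percentiles 11.0 to 11.3, while the FDR was near the middle, with 56.4% to 57.2% of CHAPIR peaks smaller. The highest fold over the lowest was 1.01, so the 4 transcript models gave nearly the same value. The peak stayed in the CHAPIR list only at an FDR at or under 1e-05 but dropped out at a fold of at least 4.

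Mtor, the kinase at the core of both mTOR complexes, had 1 peak, in the CHAPIR list, and none in the NC list. It covered 121 bases of the 3′ UTR on ENSMUST00000103221.9 (chromosome 4, 148557563 to 148557683, plus strand) at a fold of 4.68 and an FDR of 0.000148. The fold stood at percentile 62.1 of the list, and 71.8% of CHAPIR peaks had a smaller FDR. At an FDR at or under 1e-05 Mtor had a peak in neither list. Inside the gene's span, the NC list held 2 peaks of Angptl7, a gene on the opposite strand, at folds of 3.37 and 3.52, far from the Mtor peak. They were listed on the minus strand under Angptl7 and not under Mtor, though whether peak calling kept the strands apart is not stated.

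The Mtor peak ended 2 bases before the annotated gene end (148557685), a place where CHAPIR peaks were frequent. For each gene with a peak wholly in the 3′ UTR of a protein-coding transcript, the distance from its last such peak to the gene end was taken, a comparison chosen after the data were seen. Peaks that ended past the annotated gene end were left out. That distance was at most 10 bases for 778 of 2273 genes in the CHAPIR list (34.2%, 95% Wilson interval 32.3 to 36.2) and for 265 of 1954 genes in the NC list (13.6%, 12.1 to 15.2). The median was 238 bases in the CHAPIR list and 682 bases in the NC list. The intervals cover counting error only and say nothing of the spread between animals. Mtor stood at percentile 26.4 of the CHAPIR distances and Akt2, at 2506 bases, at percentile 87.0. The second Pik3ca site, at 1516 bases, stood at percentile 69.6 of the NC distances. Of all genes in the CHAPIR list only, 325 of 951 with an annotated end (34.2%) had their leading peak within 10 bases of it, against 40 of 1949 genes (2.05%) in the NC list only. The part of this difference between the libraries in the Mtor call was not tested.

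**Figure D2:**
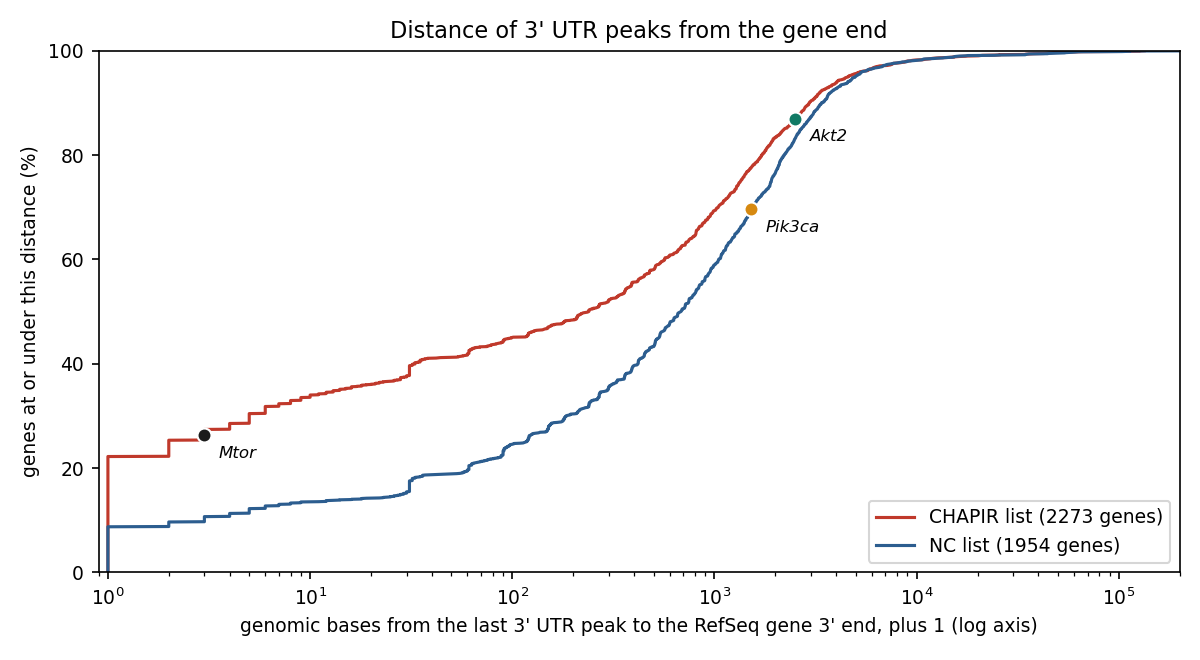
Cumulative share of genes (vertical axis, percent) by the distance in genomic bases from the last 3′ UTR peak to the annotated gene end (horizontal axis, log scale, 1 added), for 2273 genes of the CHAPIR list (red) and 1954 genes of the NC list (blue). The CHAPIR curve already stands at 34.2% by 10 bases, where the NC curve stands at 13.6%, and Mtor lies on that early part, with Akt2 and the second Pik3ca site further along.

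By region, none of the 15 lines on protein-coding transcripts was in the 5′ UTR or wholly in the coding sequence. Of the 8 CHAPIR lines on protein-coding transcripts, 3 reached from coding sequence into 3′ UTR and 5 were wholly in the 3′ UTR. Of the 7 NC lines, 4 reached from coding sequence into 3′ UTR and 3 were wholly in the 3′ UTR. Over all lines on protein-coding transcripts, peaks wholly in the coding sequence made up 36.8% of the CHAPIR list and 50.1% of the NC list. Peaks over coding sequence and 3′ UTR, the class of the Igf1r and main Pik3ca peaks, made up 17.1% and 18.2%. Peaks wholly in the 3′ UTR made up 38.7% of the CHAPIR list and 23.1% of the NC list. The 5 CHAPIR lines of that class were 4 lines of 1 Akt2 site and 1 Mtor line, and the 3 NC lines were all of the second Pik3ca site.

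**Figure D3:**
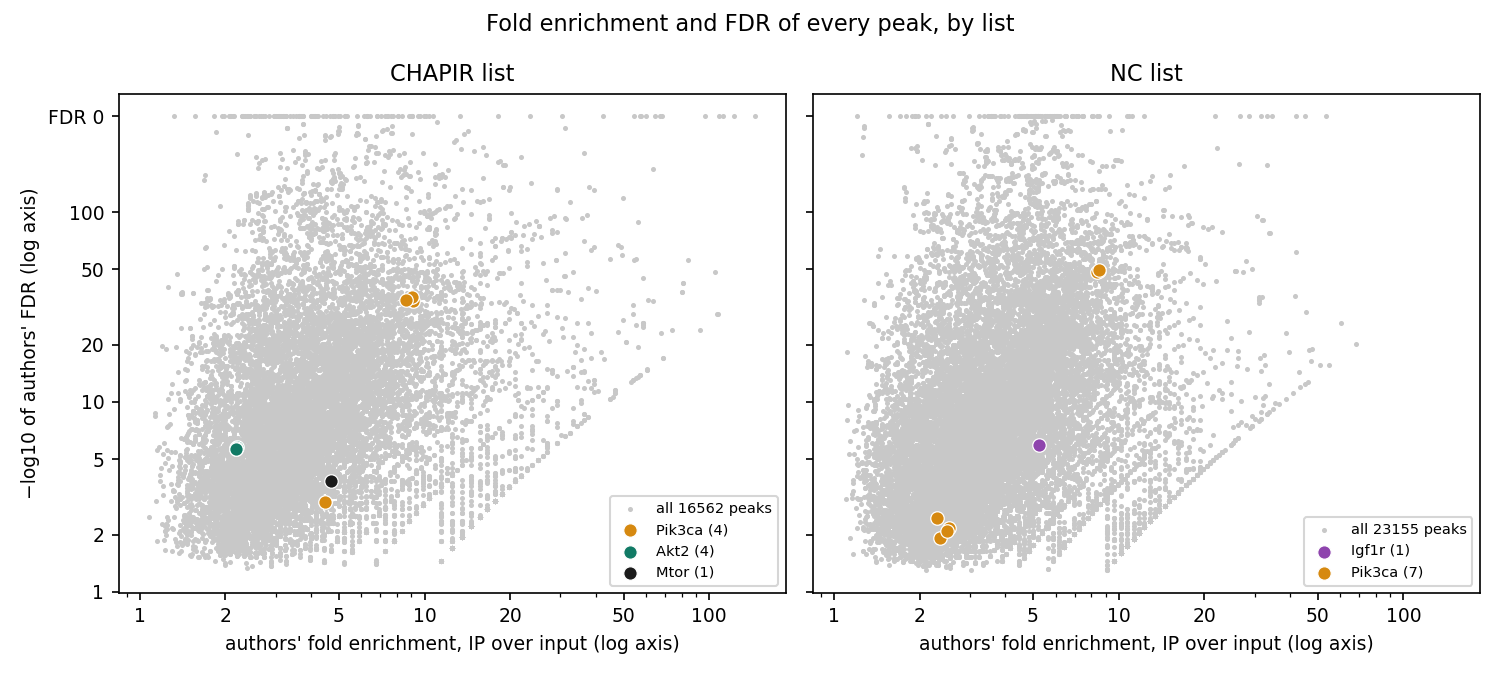
Authors' fold enrichment (horizontal, log scale) against −log10 of the authors' FDR (vertical, log scale, FDR of 0 drawn at the top) for all 16562 CHAPIR peaks (left) and all 23155 NC peaks (right), with the lines of the 4 genes coloured. The 3 protein-coding Pik3ca lines lie in the upper part of both panels, and the Akt2, Mtor and Igf1r lines lie in the dense lower part of the list that holds them.

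How often a gene recurred in the other list depended on the FDR of its leading peak, the peak of smallest FDR. Among genes whose leading CHAPIR FDR lay within 10-fold of Akt2's, 427 of 545 (78.3%, Wilson interval 74.7 to 81.6) also had an NC peak. For Mtor this was 555 of 815 (68.1%, 64.8 to 71.2). Akt2 and Mtor were thus on the less common side for CHAPIR genes of their FDR. Among genes whose leading NC FDR lay within 10-fold of Igf1r's, 340 of 648 (52.5%, 48.6 to 56.3) also had a CHAPIR peak, so presence and absence in the CHAPIR list were about equally frequent there. Near Pik3ca, 37 of 44 genes of the CHAPIR list (84.1%, 70.6 to 92.1) and 32 of 32 of the NC list recurred in the other.

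**Figure D4:**
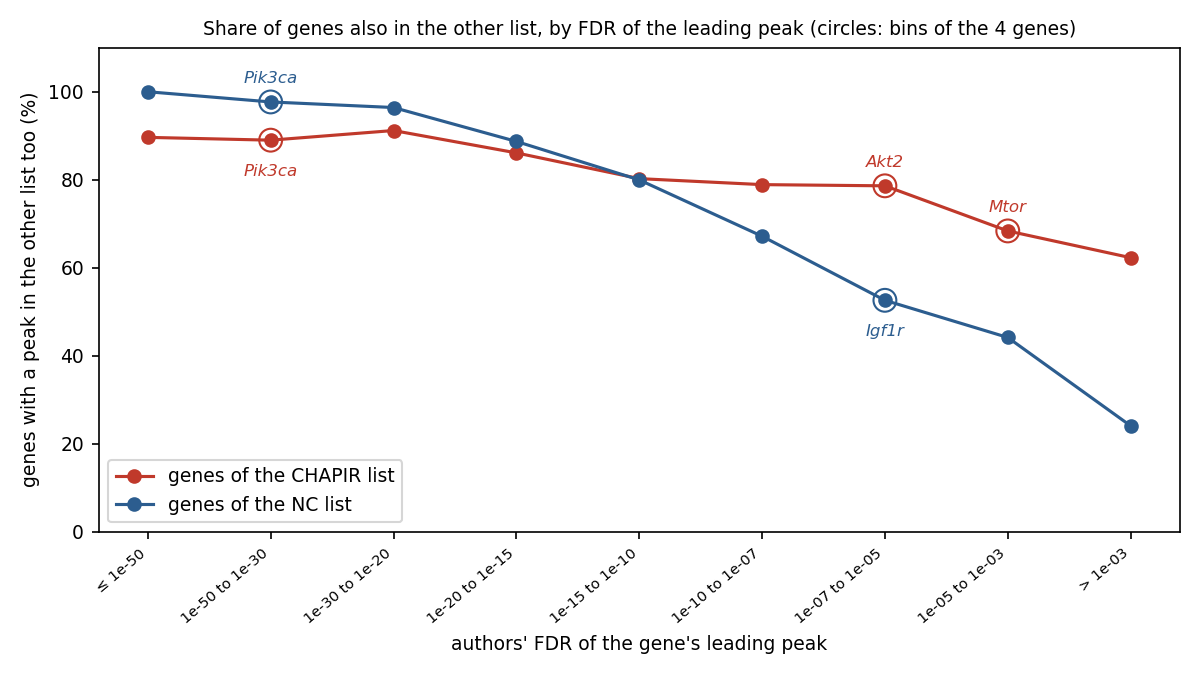
Share of genes with a peak in the other list too (vertical axis, percent), by the authors' FDR of the gene's leading peak (horizontal axis, 9 bins), for genes of the CHAPIR list (red) and of the NC list (blue), with circles on the bins of the 4 genes. The share is smallest in the last bin, at 62.3% for CHAPIR genes and 24.1% for NC genes.

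The other genes of the pathway were taken from 10 lists by role, 124 genes with the 4 included. Of these, 75 had a peak. Without the 4 genes, 44 of 71 (62.0%, Wilson interval 50.3 to 72.4) had a peak in both lists, 10 (14.1%, 7.83 to 24.0) in the CHAPIR list only and 17 (23.9%, 15.5 to 35.0) in the NC list only. The shares over all genes, 53.5%, 15.3% and 31.3%, lie inside those intervals, which cover counting error only. Values given below are those of the leading peak.

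Of the 6 genes of growth factors and their binding proteins with a peak, 4 (66.7%) were in the CHAPIR list only, against 15.3% of all genes, and 0 were in the NC list only, against 31.3% of all genes. With so few genes this count is a description of the group. Igf1 (6.87-fold, FDR 2.75e-05) and Igf2 (14.0-fold, FDR 9.55e-09), the 2 IGF ligands, and the binding protein genes Igfbp4 (12.0-fold) and Igfbp7 (2.33-fold) had 3′ UTR peaks in the CHAPIR list only. The Igf1 value depended on the transcript: at the same site 6 transcripts gave folds from 3.57 to 19.8, a ratio of 5.55. So did the Igf2 value, with folds from 3.86 to 14.0 on 4 transcripts at its leading site, a ratio of 3.63. The leading Igfbp7 peak ended at the last base of the gene, and another Igfbp7 peak in the CHAPIR list, over the start of the coding sequence, had a fold of 8.11. The Igfbp4 peak ran past the annotated gene end. Igfbp3 (3.62 in CHAPIR, 3.15 in NC) and Igfbp5 (5.87 in CHAPIR, 4.73 in NC) had peaks in both lists. Among receptors, the insulin receptor gene Insr (6.16 and 2.87, in the same order) and the IGF2 receptor gene Igf2r (3.05 and 5.80) were in both lists, unlike Igf1r.

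Adaptor genes were divided. Irs1, the insulin receptor substrate that recruits PI3K (6.59-fold), and Shc1 (2.65-fold), an adaptor to the Ras pathway, were in the CHAPIR list only, with FDRs of 0.00513 and 0.0166. Grb10, which restrains insulin and IGF1 receptors (3.04-fold), and Gab1, a docking protein (3.01-fold), were in the NC list only. Grb14, Sos1, Sos2 and Sh2b1 had peaks in both lists, but the Sh2b1 peaks were apart. The CHAPIR peak lay 1 base from the gene end (4.29-fold), and the leading NC peak was within coding exons (6.77-fold). The NC list also held a second Sh2b1 position, at 126467472 to 126467599 of chromosome 7, with folds from 2.58 to 2.7. That position was annotated to the 3′ UTR on some transcripts and did not overlap the CHAPIR peak.

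Among the PI3K subunits, Pik3ca was in both lists, as was its regulatory partner Pik3r1, whose leading peaks were in the 3′ UTR (10.6-fold in CHAPIR, FDR 1.26e-71, and 6.56-fold in NC, FDR 6.31e-45). Pik3r1 had further peaks, among them a 5′ UTR peak in CHAPIR (11.4-fold) and a peak over 5′ UTR and coding sequence in NC (12.9-fold). Pik3r4, which belongs to the class III lipid kinase complex, was also in both (2.60 and 2.47). Pik3c2a, a class II kinase gene, was in the NC list only (5.01-fold, coding sequence). The other 9 listed subunit genes, among them Pik3cb and Pik3cd, had no peak. Of the phosphatase genes that oppose PI3K and AKT, Phlpp1 (27.0 in CHAPIR, 2.95 in NC) had overlapping peaks in both lists, annotated to the coding sequence and 3′ UTR. Inppl1 (4.83-fold) and Phlpp2 (11.8-fold) were in the NC list only.

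Akt1, the paralogue of Akt2, had another pattern. It had a peak at the last bases of its 3′ UTR in the CHAPIR list (7.33-fold, FDR 7.94e-28), and in the NC list it had peaks in the 5′ UTR (15.0-fold) and the coding sequence (1.46-fold and 1.47-fold) but none in the 3′ UTR. Its leading NC line, on a processed transcript at the same place as the 5′ UTR peak, had a fold of 26.3. Akt2 had its 3′ UTR peak in the CHAPIR list only. No position was therefore shared by the lists in either gene.

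Both lists held 8 of the 12 AKT substrates that had a peak (66.7%), near the 53.5% of all genes. The transcription factor genes Foxo3 (6.81 in CHAPIR, 4.94 in NC) and Foxo4 (3.16 and 9.01), the glucose transport regulator gene Tbc1d1 (9.02 and 4.80) and Mdm2, a ubiquitin ligase of p53 (5.20 and 8.33), had overlapping peaks. Tsc2, the GTPase-activating subunit that holds mTOR complex 1 in check (2.50-fold), and Akt1s1, an inhibitor within that complex (2.96-fold), were in the CHAPIR list only. The Tsc2 peak lies within the RefSeq span of Pkd1 and the Igfbp7 peak within that of Polr2b, as the leading peaks of Sos1, Inppl1, Tti2 and Fnip2 lie within spans of Arhgef33, Gm10602, Mak16 and Gm17359. Whether peak calling kept the strands apart is not stated, so reads of such pairs may not be separate. Foxo6 (13.9-fold) and Gsk3b, a kinase that AKT inhibits (6.35-fold, FDR 7.76e-07), were in the NC list only.

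The subunits of the mTOR complexes were spread over the 3 patterns. Rictor, which defines mTOR complex 2 (13.5-fold, FDR 0.00513), shared with Mtor a 3′ UTR peak in the CHAPIR list only. Rptor, which defines mTOR complex 1 (4.83-fold, FDR 0.00331, 3′ UTR), and Tti1, part of the assembly machinery (16.6-fold), were in the NC list only. Mapkap1, a subunit of complex 2 (3.88 in CHAPIR, 1.88 in NC), and Tti2 (6.76 and 5.75) were in both. The fold of Rictor, also the leading CHAPIR fold of Fnip2, was found exactly on 113 CHAPIR lines of 88 genes. The folds of Foxo6, Phlpp2 and Tti1 were found on 68, 102 and 24 NC lines of 53, 76 and 21 genes. Their FDRs of 0.00214, 0.00891 and 0.000339 were the largest in the NC list at that fold or above. Among the 4 genes, the Mtor fold was shared by 90 CHAPIR lines of 78 genes, the Igf1r fold by 38 NC lines of 35 genes and the leading Akt2 fold by 26 CHAPIR lines of 25 genes. The leading Pik3ca folds were on 4 CHAPIR and 2 NC lines. Without read counts such repeated folds could not be examined further.

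Of the 10 regulators upstream of mTOR complex 1 with a peak, 9 (90.0%) were in both lists, against 53.5% of all genes, a count given as a description. They included Rragd, a GTPase of amino acid sensing (7.74 in CHAPIR, 6.82 in NC, at the start of the coding sequence), Lamtor2 of its lysosomal anchor (2.08 and 3.27), the folliculin gene Flcn (6.47 and 7.56) and Fnip2, which encodes a partner of folliculin (13.5 and 9.25). The leading Fnip2 peaks lay at different places, in the 3′ UTR in CHAPIR (FDR 0.0112) and in the coding sequence in NC. At the CHAPIR site the NC list held a Fnip2 peak of 13.4-fold (FDR 0.000912). Tsc1, the partner of Tsc2, was in the NC list only (3.93-fold, coding sequence), so the 2 subunit genes of that complex had opposite patterns. No gene of this group was in the CHAPIR list only.

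Effectors of mTOR complex 1 were in both lists for 11 of 18 genes (61.1%) and in the NC list only for 6 (33.3%), near the 53.5% and 31.3% of all genes. The elongation factor gene Eef2 had overlapping 3′ UTR peaks that ended 11 bases from the gene end in both lists (5.78-fold in CHAPIR, FDR 1.00e-108, and 4.07-fold in NC, FDR 1.00e-110). Rps6kb1, the S6 kinase (14.1 and 6.94), the initiation factor gene Eif4b (2.45 and 2.60) and Rb1cc1 of the autophagy initiation complex (7.92 and 8.98) were also in both. The leading Eif4b peaks of the lists lay at different places in the gene. The NC only genes were Rps6kb2 (2.32-fold), the elongation factor kinase gene Eef2k (2.45-fold), the polymerase III repressor gene Maf1 (2.36-fold), the lipin gene Lpin1 (2.19-fold), the autophagy kinase gene Ulk1 (5.90-fold) and Tfeb, a transcription factor of lysosomal genes (5.85-fold). Ulk2, the paralogue of Ulk1, was in the CHAPIR list only (3.41-fold).

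**Figure D5:**
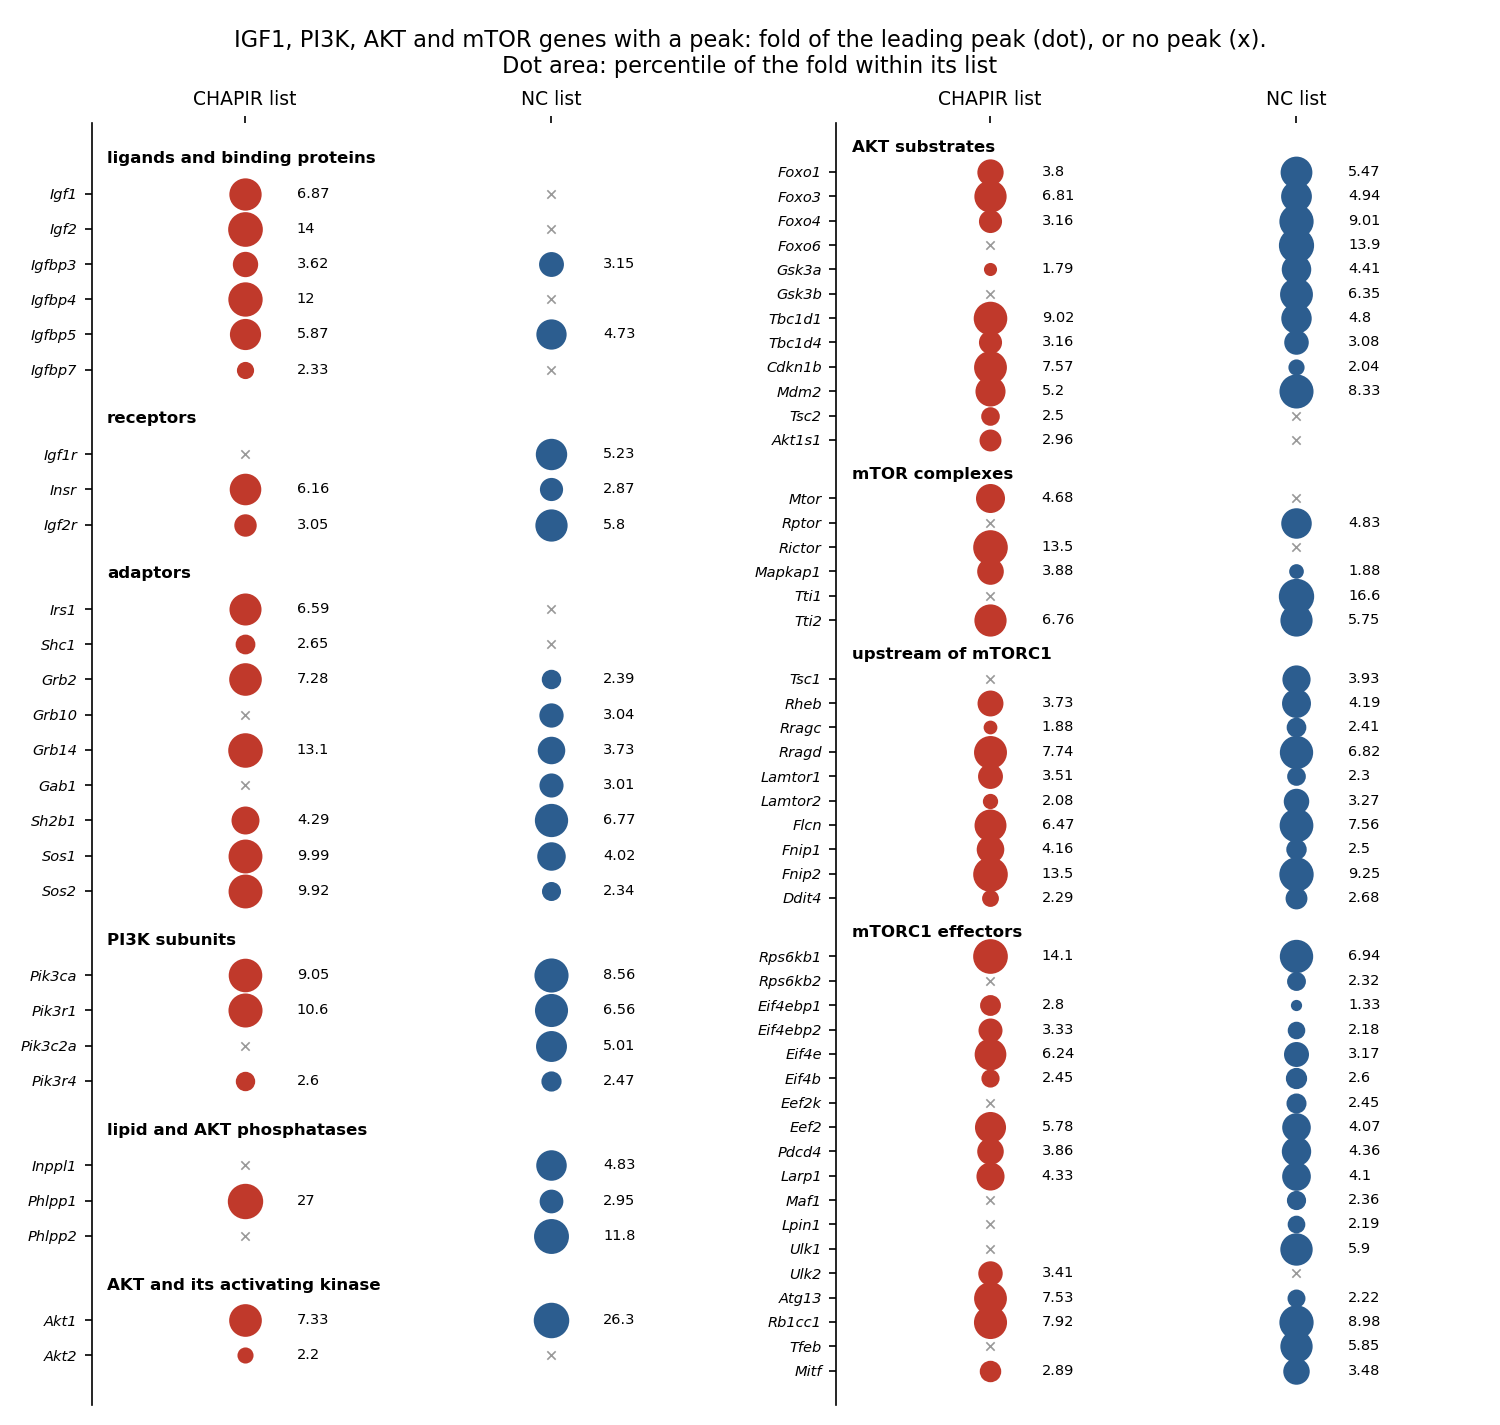
Pathway genes with a peak (73 of the 75), grouped by role, with a dot for the leading peak in the CHAPIR list (red, left column) and in the NC list (blue, right column), the authors' fold beside it, and a cross where the list had no peak. Dot area gives the percentile of the fold within its own list. Ligands have crosses only in the NC column, and regulators upstream of mTOR complex 1 have dots in both columns except Tsc1.

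The list only genes of the pathway differed in peak region, as the lists did. Of the 12 CHAPIR only pathway genes, Akt2 and Mtor included, 11 had their leading peak wholly in the 3′ UTR, against 58.3% of all CHAPIR only genes, and for 3 (Mtor, Igfbp7 and Akt1s1) it lay within 10 bases of the gene end. Of the 18 NC only pathway genes, Igf1r included, 6 had it in the 3′ UTR, 7 in the coding sequence and 3 across both, against 23.9%, 37.3% and 12.7% of all NC only genes. Leading folds had a median of 4.05 over the CHAPIR only pathway genes (4.68 over all CHAPIR only genes) and of 4.86 over the NC only ones (4.21 over all). Of the 45 shared pathway genes, 39 had overlapping peaks, and Sh2b1, Akt1, Gsk3a, Cdkn1b, Rragc and Eif4ebp2 had peaks at separate positions. The same share over all 3557 genes in both lists was not computed, so this count only describes the pathway genes.

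The genes most like each of the 4 were sought among genes with the same pattern and the same number of positions, by the distance between the percentiles of their leading folds. Over the 2 lists and 458 candidate genes, Rnf146, a ubiquitin ligase gene, came closest to Pik3ca (9.26-fold in CHAPIR and 7.73-fold in NC, 1.97 percentile points away), followed by the mitochondrial gene mt-Nd2 (8.10 and 8.56, 2.45 points). Over a single list the measure was coarse. Atoh8 and Bet1l, 2 of 4 genes at a distance of 0 among 1654, had the NC fold of Igf1r, and Fmo5 and Higd2a, 2 of 6 among 903, had the CHAPIR fold of Mtor. For Akt2, again among 903, these were Gm12254 (distance 0) and Rrnad1 (0.151 points).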

How the data were processed

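Reads were trimmed with cutadapt and aligned with HISAT2, and exomePeak called and annotated peaks per transcript, per the labels' protocols. HISAT2 2.1.0 and GRCm38 are named in the submitters' processing notes. No source used here gives exomePeak's version, options, threshold or handling of strand. The authors deposited, for each peak, a ratio of pulldown over input (fold enrichment) with its p-value and FDR. These values served only to rank, filter and describe peaks inside their own list.

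Deposited starts count from 0 (386 CHAPIR and 181 NC peaks began 1 base before a RefSeq gene start, 98 and 34 at it) and were raised by 1 base. Overlap needed 1 shared exonic base on the same strand (bedtools 2.31.1), and overlapping lines of a gene formed a position. Both steps were tested on simulated data. Gene ends came from RefSeq (GRCm38.p6), which held 6282 of 6653 symbols. Python 3.11.15, pandas 2.3.3, numpy 2.4.6, scipy 1.17.1 (95% Wilson intervals) and matplotlib 3.10.9 were used. The genes, pathway lists and markers were chosen with earlier results of these data known. Named were the 4 genes, the pathway genes in a single list, and up to 4 shared genes per role by smallest NC FDR, except a few that are left out of the text. Genes without an overlap, and details of Igf1, Akt1 and repeated folds, were named after their values were seen. Alternatives were a stricter FDR (1e-05 or less), a minimum fold of 4, lists cut to equal length, protein-coding transcripts, distinct positions and other overlap rules. Sequence under the peaks was not used here.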

Additional observations from a re-analysis of the deposited data

How the results depend on the processing

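Of 38 values under alternatives, 26 stayed within 1.5 times the value reported and 12 did not. The CHAPIR list held 9 lines of the 4 genes and the NC list 8. A fold of at least 4 left 5 CHAPIR and 4 NC lines, an FDR at or under 1e-05 left 4 NC lines, and cutting the NC list to the CHAPIR length (p at or under 2.57e-05) also left 4 NC lines. Counted as distinct positions, the lists held 3 and 3, with 1 position of each overlapped by the other, against 4 overlapped lines in each. Pathway genes in both lists were 45, 24 at the strict FDR and 19 at the strict fold. Pathway genes in the CHAPIR list only were 12, 19 at the strict fold and 19 with lists of equal length. Each of these settings leaves fewer lines to count. Pik3ca stayed in both lists and Igf1r in the NC list only under the 4 alternatives that filter peaks, whereas Mtor was lost at the strict FDR and Akt2 at the strict fold. Overlap of at least 50% of both peaks, whole spans and strand ignored left the Pik3ca overlap as it was. No paired analysis was possible because each condition had 1 pulldown library, and depth is unknown.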
